A study of Mus musculus with 12 samples.

Results

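The comparison of Th17 with iTreg cells was made through the Th0 cells that both share, for genes that stand in both of the tables deposited by the authors and had more than 1 FPKM (fragments corrected for transcript length and for the reads of a library) in at least 4 of the 8 libraries of each table. Of 11247 genes listed in either table, 10886 stood in both, and 10079 of these passed the filter and were compared. Naive CD4+ T cells from the spleens of C57BL/6 mice aged 8 to 10 weeks had been activated on plate-bound anti-CD3 (1 μg/ml) with anti-CD28 (1 μg/ml) in all groups, and RNA of 4 cultures per group was sequenced after 3 d (12 libraries). Th0 cells received no polarizing cytokine. Th17 cells received 30 ng/ml IL6 and 5 ng/ml TGFβ1 with neutralizing anti-IL4 and anti-IFNγ (10 μg/ml each), and iTreg cells received 10 ng/ml IL2 and 10 ng/ml TGFβ1, for which the paper's methods give a higher TGFβ1 dose than the labels. The conditions therefore differed in IL6, IL2, the TGFβ1 dose and both antibodies at once, and the parts these play cannot be told apart. The cultures are mixed populations, and in bulk RNA fewer cells expressing a gene and less RNA per cell cannot be told apart.

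Th17 cells are helper T cells that secrete IL17A and IL17F. They arise when TGFβ acts together with IL6, which signals through gp130 and STAT3 and leads to expression of the nuclear receptor RORα and of BATF and MAF. Induced regulatory T (iTreg) cells arise when TGFβ acts without IL6 and with IL2, which signals through STAT5, and they express the transcription factor FOXP3 and suppress other T cells. TGFβ is common to both routes, so this comparison asks which genes part the cultures beyond what activation and TGFβ signalling have in common.

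Because the tables were scaled separately by the authors, each Th17 or iTreg library was first set against a Th0 library of its own table, as the difference of log2(FPKM + 1) between library columns whose headings begin alike (M22, M29, M42, or M43). The anchored difference is the mean of the 4 Th17 differences minus the mean of the 4 iTreg differences, so that positive values mean higher in Th17 and negative values higher in iTreg cells, relative to Th0. It was tested with limma, and genes past a false discovery rate (FDR) of 0.05 over all 10079 genes are called differentially expressed (DE). The same Th0 library enters both the Th17 and the iTreg difference of a heading. The main test was unpaired and treated these differences as independent, which they are not. What the heading beginnings mark is stated neither in the labels nor in the paper's methods. Values of single libraries are given in the order M22, M29, M42, and M43, in FPKM, and other errors are SD over n = 4.

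Sequencing depth, read from the steps of low FPKM values, was 0.918 to 1.08 for Th17, 0.974 to 1.19 for iTreg, and 0.825 to 1.05 for Th0 libraries (1 being the depth of a middle library in the Th17 table). Of the markers of CD4+ T cells, Cd3d, Cd3e, Cd3g, Cd4, and Lck summed to 759 to 1266 FPKM in Th17 and 895 to 1172 FPKM in iTreg libraries, while Trac, Trbc1, and Trbc2 were not analysed here. The markers chosen for γδ T cells (4 genes), NK cells (5 genes), and red cells and platelets (6 genes) have no row in the tables used here. Of 6 B cell markers only Cd79a was listed, and summed to 0.586 to 2.49 FPKM in Th17 and 0.505 to 2.002 FPKM in iTreg libraries. Of 2 CD8 T cell markers only Cd8b1 was listed (3.22 to 5.89 FPKM against 2.19 to 5.52 FPKM). The 2 listed of 9 myeloid markers were Cd68 and, in the Th17 table only, Itgam, and summed to 5.58 to 16.5 FPKM in Th17 and 2.61 to 7.19 FPKM in iTreg libraries, and Cd68 had an anchored difference of 0.76 (adjusted p = 0.12) that passed with the heading as a block (adjusted p = 0.0039). The 4 listed of 7 dendritic cell markers (Zbtb46, H2-Aa in the Th17 table only, H2-Ab1, and Cd74) summed to 2.03 to 15.3 FPKM in Th17, 10.9 to 35.2 FPKM in iTreg, and 18.8 to 33.3 FPKM in Th0 libraries. Cd74, which T cells also express when activated, was at 8.23, 3.15, 0.484, and 1.10 FPKM in Th17 and 14.95, 9.01, 14.9, and 34.3 FPKM in iTreg cells, with an anchored difference of -2.40 (standard error 0.50, adjusted p = 0.012, leave-one-out up to 0.085). The part of such cells in the results below was not tested.

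The Th17 library M43 stood toward the iTreg cells for a number of genes, Foxp3 among them. Foxp3 was at 0.499, 0.502, 4.50, and 42.5 FPKM in the Th17 libraries, so that M43 stood far above the other libraries. Of the DE genes named below, 9 were not DE without this library, and their adjusted p without it is given.

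In total, 1726 of the 10079 genes (17.1%) were DE, of which 856 were higher in Th17 (8.49% of the genes compared) and 870 higher in iTreg cells (8.63%). No overlap between the 4 Th17 and the 4 iTreg differences was seen for 2353 genes (23.3%), 1593 of them DE. Most DE genes differed moderately, with a median size of 0.65 on the log2 scale. The difference was over 1 for 205 genes higher in Th17 and 214 higher in iTreg cells, over 2 for 26 and 49 genes, and over 3 for 7 and 13 genes. Among the genes compared, the larger differences thus lay more often on the iTreg side. Genes under the filter or listed in a single table are not in these counts. Within headings, the difference had the same sign in all 4 pairs for 854 of the 856 and 867 of the 870 genes. With the heading beginning as a block, 3396 genes were DE (1615 higher in Th17, 16%, and 1781 higher in iTreg, 17.7%), including 1725 of the 1726. Subtracting the mean of the Th0 libraries in place of the single library gave 1083 genes. Leaving out a Th0 library also takes the Th17 and iTreg libraries of its heading with it, and so removes the whole heading. Without the Th0 library M22 there were 649 genes (333 and 316). Of the 112 DE genes named below, 73 remained DE when any one Th17 or iTreg library or any one heading was left out. The other 39 lost the call at least once, most often without the whole heading M42 (32 genes) or M22 (32 genes). For these 39, the largest adjusted p with 1 library or 1 heading left out follows the adjusted p as the leave-one-out value.

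**Figure D1:**
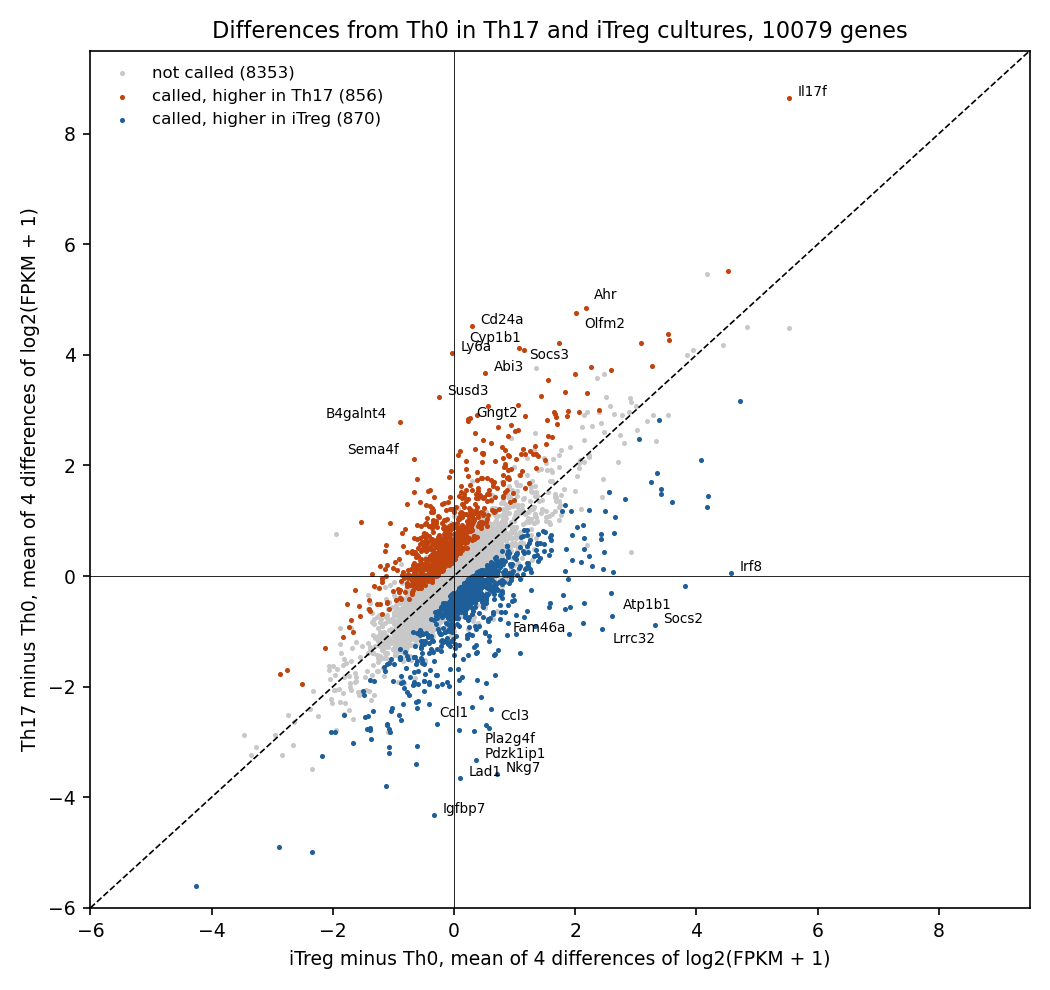
Each point is 1 of 10079 genes, with the mean difference from Th0 (log2(FPKM + 1), 4 libraries) in iTreg on the horizontal and in Th17 on the vertical axis, coloured by the limma call at FDR 0.05. Both axes share the Th0 libraries, so the spread along the dashed line of equal values is not a result, while distance from it is the anchored difference (856 genes above and 870 below were DE), and the 24 labelled genes have the largest differences under the naming rule.

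Of the DE genes whose groups did not overlap and whose mean was above 10 FPKM in Th17 or iTreg cells, the 12 with the largest differences in each direction were taken. Genes outside the comparison, Tox2 and Il21 among them, are given at the end and were not ranked here. Among those toward Th17 were a cytokine, a nuclear sensor, and a feedback inhibitor of cytokine signalling. Il17f (chromosome 1, 20777146 to 20790617, minus strand of GRCm38), which encodes a signature Th17 cytokine, was at 492, 281, 788, and 366 FPKM in Th17 and 37.8, 26.9, 66.4, and 99.2 FPKM in iTreg cells, against 0.124 ± 0.0408 FPKM in Th0 cells. It was thus far above Th0 in both, and the groups did not overlap (anchored difference 3.11, standard error 0.41, adjusted p = 0.0014). Within M43 the difference was 1.87, and within the other headings it was 3.34 to 3.67.

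Cd24a, a GPI-anchored surface glycoprotein, had the largest difference toward Th17 of the 12 taken, 4.23 (standard error 0.45, adjusted p = 0.00050). It was at 92.9, 90.1, 76.9, and 39.9 FPKM in Th17 and 2.62, 1.62, 2.57, and 5.23 FPKM in iTreg cells, so that the lowest Th17 library, M43, was still several times above every iTreg library. Ly6a, the surface antigen Sca-1, was at 83.3, 97.2, 76.4, and 167 FPKM and 4.57, 17.5, 1.33, and 4.35 FPKM (4.08, standard error 0.44, adjusted p = 0.00050). Th0 cells had 5.43 ± 2.01 FPKM of Ly6a, and the iTreg libraries spread widely around this mean, with M29 above and the others below it. For B4galnt4, a glycosyltransferase (3.67), and Sema4f, a semaphorin (2.79), the mean of the iTreg libraries was below Th0 while that of Th17 was above it. Susd3 (3.49), Olfm2 (2.74), Cyp1b1 (2.94), and Gngt2 (2.62) were also among the 12. Abi3 (3.16) shares 75.8% of its exonic bases with other genes, among which is Gngt2 on the opposite strand (chromosome 11, 95830074 to 95842476 for Abi3 and 95837216 to 95845734 for Gngt2). The reads had been counted without strand, and those of Abi3 and its neighbours cannot be told apart there.

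Toward iTreg, the largest difference of the 12 taken was that of Irf8 (chromosome 8, 120736358 to 120756694, plus strand), an interferon regulatory factor. It was at 158, 115, 234, and 205 FPKM in iTreg and 2.90, 3.60, 7.87, and 19.96 FPKM in Th17 cells, where Th0 cells had 7.79 ± 5.26 FPKM, and its anchored difference was -4.52 (standard error 0.39, adjusted p = 0.00018). The Th17 libraries thus stayed around the Th0 level while every iTreg library was above 100 FPKM.

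The other 11 genes divided by whether the iTreg or the Th17 libraries stood farther from Th0. Socs2, Lrrc32, Atp1b1 (a subunit of the sodium pump, -3.32), and Fam46a (-2.98) were above Th0 in the mean of the iTreg libraries by 2.13 to 3.31 on the log2 scale and below Th0 in Th17 by 0.72 to 0.96. For Nkg7, a protein of cytotoxic granules, the iTreg libraries had 50.1, 25.1, 39.6, and 53.5 FPKM, the Th17 libraries 0.301, 0.766, 1.12, and 3.28 FPKM, and Th0 cells 31.8 ± 22.3 FPKM (-4.29, standard error 0.67, adjusted p = 0.0030). Igfbp7 (-3.9970), Lad1 (-3.75, adjusted p = 0.013, leave-one-out up to 0.084), Pdzk1ip1 (-3.70), Pla2g4f (-3.12), and the chemokines Ccl3 (-3.34) and Ccl1 (-3.22) followed the same order. These 7 genes were at 8.70 to 35.1 FPKM in Th0 cells, stayed in the iTreg cells within 0.71 of Th0 on the log2 scale, and were in Th17 cells lower by 2.70 to 4.33, so that their difference lay in a low Th17 level.

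Of the 26 genes of a list of the Th17 programme, 19 were compared, and 9 were higher in Th17 and 2 higher in iTreg cells (47.4% and 10.5%, where 8.49% and 8.63% of all genes were), with a median difference of 0.97 against -0.01 over all genes. The counts were 9 and 2 also without the Th17 library M43 (6.82% and 7.06% of all genes), but with Il6ra in place of Ccr6 on the iTreg side. With the block they were 13 and 4 (16% and 17.7% of all genes). Besides Il17f, the DE genes were transcription factors and parts of the IL6 pathway. Ahr, the ligand-activated aryl hydrocarbon receptor, was at 59.9, 68.2, 82.7, and 56.1 FPKM in Th17 and 10.1, 12.03, 8.30, and 7.63 FPKM in iTreg cells (2.68, standard error 0.17, adjusted p = 5.5e-05). Batf, an AP-1 factor required for Th17 cells, was at 157, 188, 172, and 85.6 FPKM and 31.2, 31.6, 35.2, and 26.7 FPKM (2.17, standard error 0.26, adjusted p = 0.00077), and its iTreg level was close to that of Th0 cells (29.8 ± 6.45 FPKM). Rora, which encodes RORα, was at 30.5, 22.2, 26.4, and 15.9 FPKM and 6.73, 4.57, 6.18, and 5.89 FPKM (1.82, standard error 0.17, adjusted p = 0.00026). The groups did not overlap for any of the 3 genes. Bcl3 (1.98, adjusted p = 0.00050), Fosl2 (1.51, adjusted p = 0.00011), Il6st, which encodes gp130 (1.45, adjusted p = 0.012, leave-one-out up to 0.070), Hif1a (1.44, adjusted p = 0.00084), and Stat3 (0.97, adjusted p = 0.00037) were higher in Th17 too.

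Maf, which encodes a transcription factor of the programme, was far above Th0 in both cultures and not DE between them in the unpaired test. It was at 226, 266, 233, and 213 FPKM in Th17 and 97.8, 117, 89.6, and 77.3 FPKM in iTreg cells, with Th0 at 5.52 ± 5.21 FPKM and a difference of 1.29 (adjusted p = 0.093). The within-heading differences of Maf were even (1.18, 1.17, 1.35, and 1.44), and with the block it was DE (adjusted p = 0.00028). Cd101 (0.09, adjusted p = 0.88) and Irf4 (0.03, adjusted p = 0.92) were close to 0, and their sign changed when single libraries were left out. Runx1 (0.40, adjusted p = 0.081), Il6ra (-0.95, adjusted p = 0.090), and the chemokine receptor Cxcr3 (0.30, adjusted p = 0.41) were not DE in the unpaired test of all libraries. With the block their adjusted p was 0.0091, 0.0025, and 0.022. Without the Th17 library M43, Il6ra was DE in the unpaired test too (-1.23, adjusted p = 0.033).

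The differences of Ccr6 and Ccl20 were negative. Ccr6, the receptor found on Th17 cells, was at 24.3, 11.4, 17.8, and 27.8 FPKM in iTreg and 9.78, 1.90, 2.08, and 2.46 FPKM in Th17 cells. Its difference was -2.25 (standard error 0.59, adjusted p = 0.030, leave-one-out up to 0.15), and -2.09 (adjusted p = 0.073) without the Th17 library M43, and the groups of differences overlapped. Its ligand Ccl20 was at 18.4, 7.95, 26.8, and 60.2 FPKM and 3.06, 0.906, 3.41, and 8.17 FPKM, with a difference of -2.48 (adjusted p = 0.082) that passed with the block (adjusted p = 0.00019). Within headings it was -2.26, -2.24, -2.67, and -2.75. Nfkbiz, an atypical IκB protein, was higher in iTreg cells too (-0.79, adjusted p = 0.017, leave-one-out up to 0.10).

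A list of the response to IL6, IL21, and STAT3 held 18 compared genes. Of these, 10 were higher in Th17 and 1, Nfkbiz, higher in iTreg cells (55.6% and 5.56%, where 8.49% and 8.63% of all genes were), with a median of 1.13. The list has 7 of these 11 genes in common with the Th17 programme. Socs3, the inhibitor that IL6 induces through STAT3 and that binds gp130, was at 52.5, 55.7, 52.6, and 131 FPKM in Th17 and 5.75, 7.51, 7.70, and 7.96 FPKM in iTreg cells, with Th0 at 2.93 ± 0.376 FPKM, an anchored difference of 3.04 (standard error 0.26, adjusted p = 0.00016). The M43 library, with the least Cd24a and the most Foxp3, had the most Socs3. Bcl6, the factor of follicular helper T cells and a target of STAT3, was at 40.4, 43.4, 25.7, and 14.4 FPKM and 4.57, 5.30, 3.88, and 5.03 FPKM (2.36, standard error 0.35, adjusted p = 0.0024), and here M43 was the lowest Th17 library.

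Since both STAT3 and STAT5 bind the spaced palindrome TTCNNNGAA, the 250 bases before the RefSeq start (GRCm38.p6) were searched for it, a motif whose reverse complement is itself. Of the 24 genes with the largest differences, 16 had such a window and 3 held the motif: Socs3 on the Th17 side and Irf8 and Nkg7 on the iTreg side, with Foxp3 shown as the gene that defines iTreg cells. In all, 7.37% of the 7735 compared genes with a window held it, 5.86% of the 649 higher in Th17 and 9.49% of the 664 higher in iTreg cells, and 7.02% of all 32851 windows in the table. The 4 windows are shown 5′ to 3′ on the strand of the gene with the motif in capitals, and end where an annotated exon of the gene begins.
Socs3: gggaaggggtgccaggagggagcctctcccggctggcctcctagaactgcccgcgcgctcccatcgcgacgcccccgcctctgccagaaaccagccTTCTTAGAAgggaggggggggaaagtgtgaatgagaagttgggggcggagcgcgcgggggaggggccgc
Irf8: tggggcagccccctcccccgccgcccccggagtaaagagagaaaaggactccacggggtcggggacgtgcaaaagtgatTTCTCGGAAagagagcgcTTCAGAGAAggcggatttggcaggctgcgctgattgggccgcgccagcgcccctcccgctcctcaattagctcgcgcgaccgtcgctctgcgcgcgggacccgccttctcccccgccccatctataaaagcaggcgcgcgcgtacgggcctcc
Nkg7: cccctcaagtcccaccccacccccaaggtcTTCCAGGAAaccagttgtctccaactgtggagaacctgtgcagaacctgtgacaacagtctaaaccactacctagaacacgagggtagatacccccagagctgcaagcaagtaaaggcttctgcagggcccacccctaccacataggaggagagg
Foxp3: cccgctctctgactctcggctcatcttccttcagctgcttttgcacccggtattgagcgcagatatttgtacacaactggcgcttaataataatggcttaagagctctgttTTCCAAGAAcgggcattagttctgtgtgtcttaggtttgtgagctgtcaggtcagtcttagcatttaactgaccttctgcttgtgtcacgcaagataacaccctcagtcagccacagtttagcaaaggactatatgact
They lie at chr11:117969452-117969616 (minus strand, 165 bases), chr8:120736108-120736357 (plus, 250 bases), chr7:43436888-43437072 (plus, 185 bases), and chrX:7580233-7580482 (plus, 250 bases, the second of 2 RefSeq starts). The first base of the motif stood 154 bases before the start for Socs3, 171 and 153 for Irf8, 220 for Nkg7, and 139 for Foxp3. The motif thus occurred beside genes of both directions, a match is a match of letters only, and binding was not measured. The core motif GCGTG of AHR stood in 52.6% of the compared genes' windows, in 51.0% for genes higher in Th17 and 53.3% for those higher in iTreg cells, and the RORα motif core AGGTCA in 12.4%, 12.2%, and 14.5%.

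Of 12 compared targets of AHR and of the oxidative stress factor NRF2, 6 were higher in Th17 and 0 higher in iTreg cells by limma (50% and 0%, where 8.49% and 8.63% of all genes were, median 0.68), and at an unadjusted p under 0.05 the counts were 7 and 0, where 15.8% and 17.4% of all genes were under it in these directions. Cyp1b1, a cytochrome P450 and AHR target, was at 22.4, 17.9, 15.4, and 24.02 FPKM and 2.13, 1.86, 1.12, and 1.74 FPKM (2.94, standard error 0.16, adjusted p = 1.5e-05), and Tiparp, an ADP-ribosyltransferase induced by AHR, at 59.1, 73.5, 55.1, and 41.2 FPKM and 8.38, 13.2, 7.98, and 5.33 FPKM (2.60, standard error 0.12, adjusted p = 1.1e-05). No Th17 library came near an iTreg library for either gene.

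**Figure D2:**
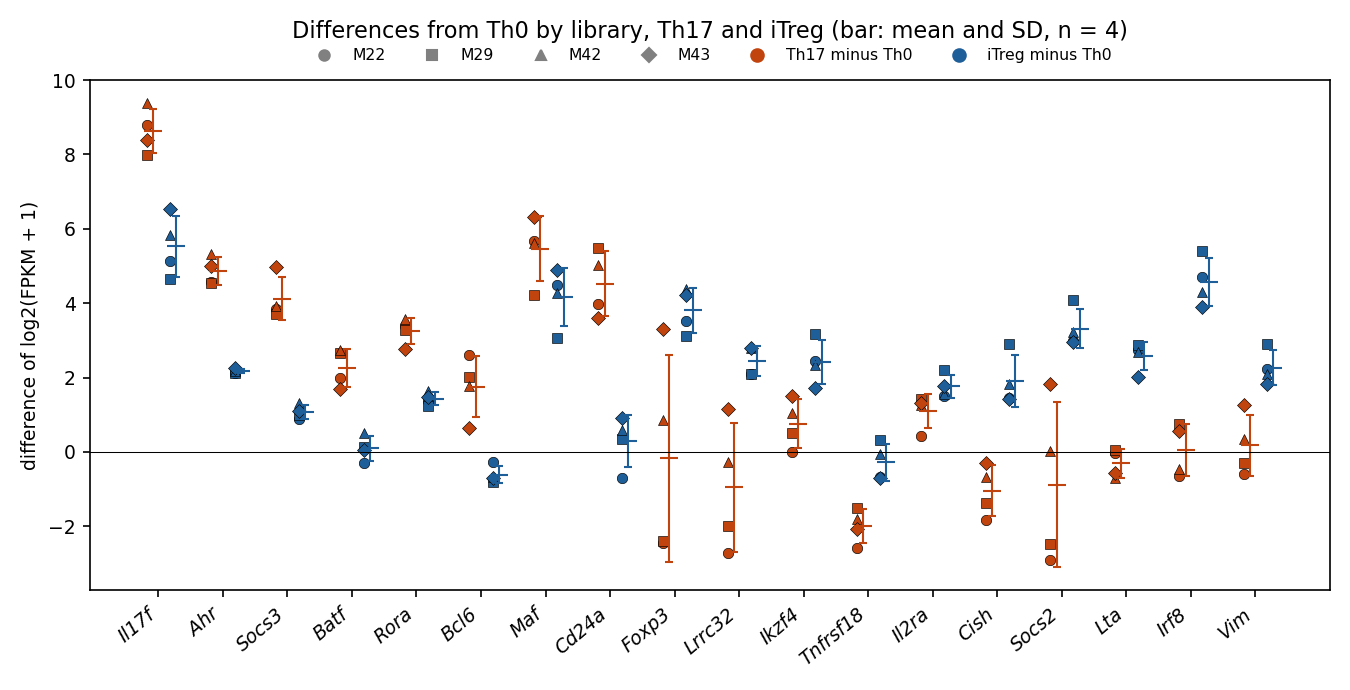
Differences from Th0 of log2(FPKM + 1) are shown for 18 genes in 4 Th17 (orange) and 4 iTreg (blue) libraries, with symbols for the heading beginnings and bars for the mean and SD (n = 4). The groups stand apart for Il17f, Ahr, Socs3, Batf, Rora, and Cd24a on the Th17 side and for Irf8, Lta, Cish, and Tnfrsf18 on the iTreg side, while the Th17 differences of Foxp3, Lrrc32, and Socs2 spread widely and are highest in M43.

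Of 29 genes of a Treg programme, 22 were compared. Of these, 12 were higher in iTreg and 2 in Th17 cells (54.5% and 9.09%, where 8.63% and 8.49% of all genes were), with a median of -0.93. Without the Th17 library M43 the counts were 12 and 1 (7.06% and 6.82% of all genes). Foxp3 (chromosome X, 7573644 to 7595245, plus strand) was at 91.7, 66.6, 62.02, and 80.5 FPKM in iTreg cells and at 0.499, 0.502, 4.50, and 42.5 FPKM in Th17 cells, with Th0 at 4.90 ± 2.58 FPKM. The anchored difference was -3.98 (standard error 1.15, adjusted p = 0.043, leave-one-out up to 0.17), and the groups overlapped through M43, within which it was -0.92, as against -3.53 to -5.97 within the other headings. Without the Th17 library M43 it was -5.14 (adjusted p = 0.0043). Other genes share 31.5% of the exonic bases of Foxp3. Lrrc32, which encodes GARP, the surface protein that holds latent TGFβ on Treg cells, was at 28.4, 16.5, 12.7, and 18.9 FPKM in iTreg and 0.0642, 0.0272, 0.658, and 5.47 FPKM in Th17 cells (-3.40, standard error 0.72, adjusted p = 0.013, leave-one-out up to 0.060, and -4.10, adjusted p = 0.0020 without M43). It was thus near 0 in the M22 and M29 Th17 libraries, and M43 alone was above the Th0 mean of 2.997 ± 2.17 FPKM.

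Ikzf4, which encodes Eos, a partner of FOXP3, was at 42.2, 39.3, 21.5, and 20.2 FPKM in iTreg and 6.91, 5.42, 8.35, and 17.3 FPKM in Th17 cells (-1.66, standard error 0.36, adjusted p = 0.015, leave-one-out up to 0.085). Within M43 its difference was -0.22. The TNF receptors of the list were set apart from Th0 in another way. Tnfrsf18 (GITR) was at 188, 153, 135, and 160.3 FPKM in iTreg and 49.4, 43.1, 40.1, and 61.99 FPKM in Th17 cells, where Th0 cells had 209 ± 88.8 FPKM (-1.72, standard error 0.28, adjusted p = 0.0039), so that iTreg cells were around the Th0 level and Th17 cells below it. Other genes share 27.2% of its exonic bases. Tnfrsf4 (OX40, -1.20, adjusted p = 0.0089, leave-one-out up to 0.056), Tnfrsf9 (4-1BB, -1.72, adjusted p = 0.0044), and Folr4 (folate receptor 4, -1.39, adjusted p = 0.019, leave-one-out up to 0.070) were likewise below Th0 in the mean of the Th17 libraries and closer to it in iTreg cells. Nrp1 (-2.65, adjusted p = 0.0012), Cd83 (-2.86, adjusted p = 0.0051), Gpr83 (-1.89, adjusted p = 0.0078, leave-one-out up to 0.061), Socs2, and Tgfb1 (-0.66, adjusted p = 0.0011) were the other genes on the iTreg side.

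The 2 genes of the Treg list on the Th17 side were coreceptors. Ctla4, an inhibitory receptor that Treg cells also use, was at 140.1, 139.7, 148, and 104 FPKM in Th17 and 62.6, 61.8, 44.4, and 42.6 FPKM in iTreg cells (1.31, standard error 0.23, adjusted p = 0.0060), with no overlap between the groups. Icos was at 72.4, 63.3, 20.4, and 75.9 FPKM and 47.2, 31.5, 13.7, and 43.3 FPKM (0.72, standard error 0.17, adjusted p = 0.021, leave-one-out up to 0.094), with overlap, and was 0.67 (adjusted p = 0.051) without the Th17 library M43. Among the 8 genes that were not DE, Il2ra (CD25) was at 478, 371, 337, and 583 FPKM in iTreg and 228, 218, 277, and 425 FPKM in Th17 cells (-0.66, adjusted p = 0.084), and with the block it was DE (adjusted p = 0.013). Capg (-0.37, adjusted p = 0.073), Rgs16 (-0.64, adjusted p = 0.067), and Swap70 (-0.64, adjusted p = 0.18) passed with the block too (adjusted p = 0.032, 0.0050, and 0.0022). The TGFβ-induced genes Itgae (0.50, adjusted p = 0.48) and Nt5e (-0.36, adjusted p = 0.48) were far above Th0 in both cultures, Nt5e by 2.92 ± 0.70 in Th17 and 3.28 ± 0.38 in iTreg cells on the log2 scale. Gzmb was below 1 FPKM in all 8 Th17 and iTreg libraries (-0.39, adjusted p = 0.61 without and 0.046 with the block).

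IL2 signals through STAT5 and induces its own feedback inhibitors. Of 24 compared genes of this response, 6 were higher in iTreg and 2 in Th17 cells (25.0% and 8.33%, where 8.63% and 8.49% of all genes were, median -0.44). With the block these counts were 11 and 2 (17.7% and 16% of all genes), and without the Th17 library M43 they were 7 and 2 (7.06% and 6.82% of all genes). Cish, which encodes the STAT5-induced inhibitor CIS, was at 207, 216, 232, and 206 FPKM in iTreg and 20.6, 10.2, 41.2, and 62.7 FPKM in Th17 cells (-2.94, standard error 0.40, adjusted p = 0.0016). The iTreg libraries were close together, and the Th17 libraries spread from 10.2 to 62.7 FPKM with M43 the highest. Socs2 was at 199, 160.0, 126, and 119 FPKM and 2.41, 0.731, 12.9, and 54.7 FPKM (-4.19, standard error 0.92, adjusted p = 0.015, leave-one-out up to 0.074, and -5.09, adjusted p = 0.0020 without M43). Lta, which encodes lymphotoxin α, was at 342, 213, 257, and 347 FPKM and 50.1, 29.2, 23.997, and 57.3 FPKM (-2.90, standard error 0.23, adjusted p = 0.00011), with no such library apart.

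Bcl2, an inhibitor of apoptosis, was at 36.4, 48.4, 25.2, and 29.7 FPKM in iTreg and 5.95, 8.06, 7.96, and 20.5 FPKM in Th17 cells (-1.75, standard error 0.36, adjusted p = 0.012, leave-one-out up to 0.079, and -2.13, adjusted p = 0.0011 without M43). Ccnd2 (-0.76, adjusted p = 0.0047, leave-one-out up to 0.051) and Tnfrsf4 were the other 2 on the iTreg side, and Jak3 (1.25, adjusted p = 0.00058) and Socs3 the 2 on the Th17 side. Socs3 is induced by IL6 as well as by IL2, and the list holds both. The receptor chains Il2rb (0.16, adjusted p = 0.31) and Il2rg (-0.16, adjusted p = 0.31) and Stat5b (-0.13, adjusted p = 0.51) were not DE, and neither were Jak1 (0.16, adjusted p = 0.47), Mcl1 (0.12, adjusted p = 0.42), Ccnd3 (-0.18, adjusted p = 0.45), Socs1 (0.42, adjusted p = 0.36), Pim1 (-0.34, adjusted p = 0.48), Pim2 (-0.54, adjusted p = 0.17), Osm (-0.64, adjusted p = 0.36), or Il2 itself (0.59, adjusted p = 0.35). Without the Th17 library M43, however, Osm was DE by limma (-1.18, adjusted p = 0.0042). Bcl2l1 (-1.12, adjusted p = 0.0503), Stat5a (-0.49, adjusted p = 0.095), and Myc (-0.81, adjusted p = 0.065) passed only with the block (adjusted p = 0.0014, 0.029, and 0.040).

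**Figure D3:**
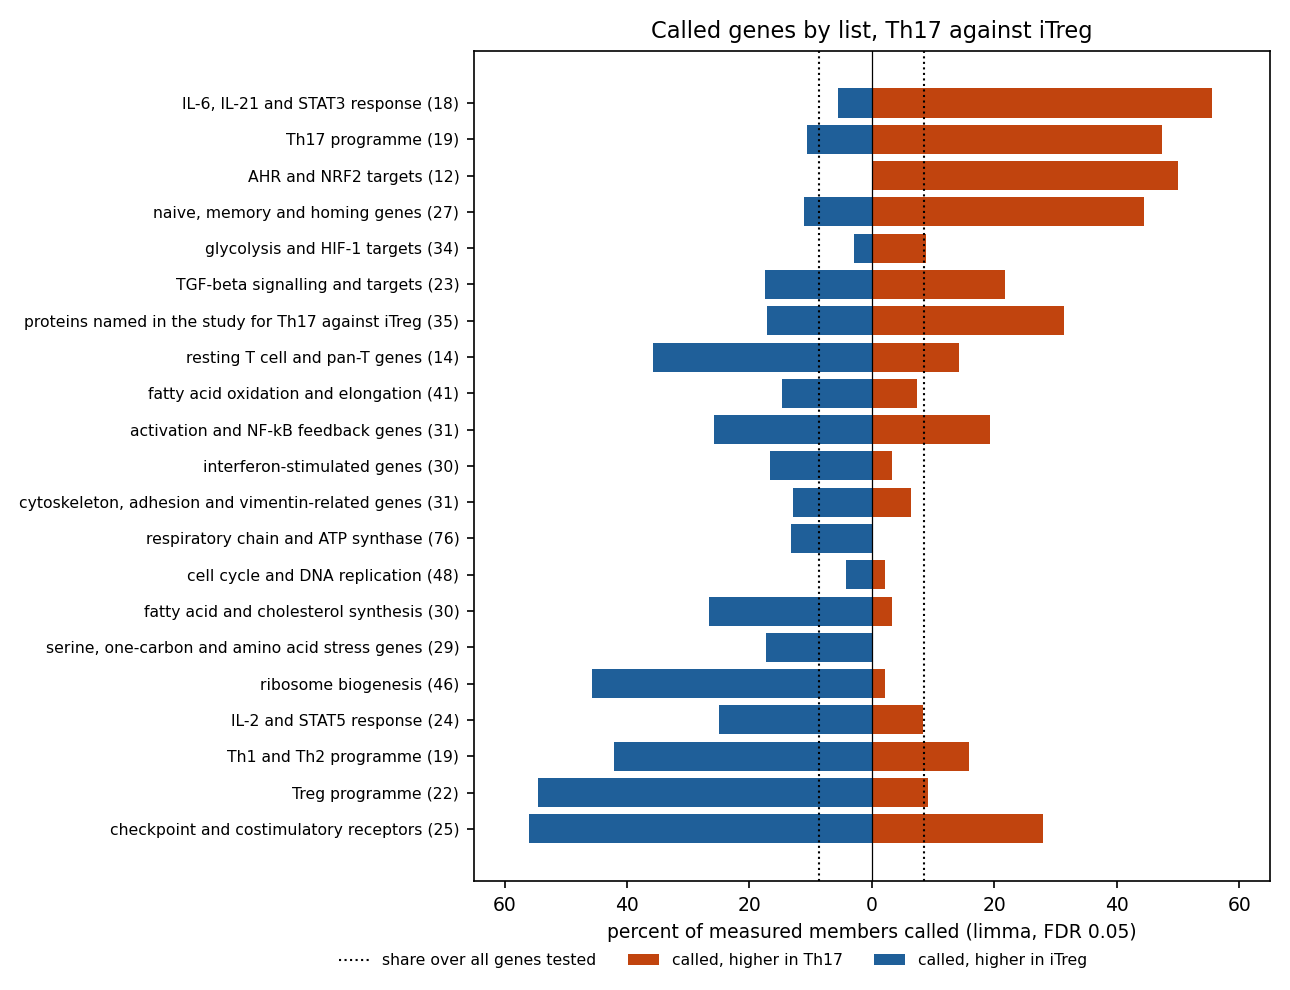
Bars give the percent of compared members of each list that were DE by limma at FDR 0.05, higher in Th17 to the right (orange) and higher in iTreg to the left (blue), with the number of members in brackets and dotted lines for all genes (8.49% and 8.63%). Lists are ordered by their median difference, from the IL-6, IL-21 and STAT3 response (55.6% higher in Th17) to the checkpoint and costimulatory receptors (56.0% higher in iTreg).

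The heading M43 was then described across genes. A difference within it rests on its Th17 and its iTreg library alike. To avoid choosing genes by the values described, the genes DE without the Th0, Th17, and iTreg libraries of a heading were taken, and their differences within that heading were read. For M43, 493 genes were higher in iTreg cells by the other headings, with a median over genes of -0.87 (mean of the 3 other headings), and their median within M43 was -0.71. For 233 of them (47.3%) the M43 difference was the smallest of the 4. The 497 genes higher in Th17 had medians of 0.87 and 0.66, and 252 (50.7%) were smallest in M43. The corresponding shares were 14.7% to 37.5% of the genes higher in Th17 and 23.4% to 41.6% of those higher in iTreg cells for the other headings. A smaller median in the heading left out was not particular to M43. On the iTreg side it went from -0.74 to -0.58 for M29, from -0.92 to -0.88 for M42, and from -1.02 to -1.08 for M22. On the Th17 side it went from 0.74 to 0.68, from 0.93 to 0.82, and from 0.92 to 1.05. Most M43 differences had the same sign as the rest, for 466 of the 493 and 485 of the 497 genes.

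Genes of the Treg and IL2 lists were among those smallest in M43. Within-heading differences were -5.97, -5.50, -3.53, and -0.92 for Foxp3 and -5.89, -6.55, -3.21, and -1.12 for Socs2. Those of Vim were -2.82, -3.22, -1.76, and -0.57, and those of Bcl2 were -2.44, -2.46, -1.57, and -0.53. Of the 12 genes of the Treg list higher in iTreg cells, 7 had their smallest difference in M43, and of the 9 genes of the Th17 list higher in Th17 cells, 5 did. These list genes were called with M43 included. Of all genes DE without the heading, 47.3% on the iTreg and 50.7% on the Th17 side were smallest in M43. The list counts are therefore not read as particular to these lists. The median difference from Th0 over all genes was -0.01 in the Th17 library M43, and Socs3 and Cyp1b1 were at their highest in it. Without this library, 1399 genes were DE (687 higher in Th17, 6.82%, and 712 in iTreg cells, 7.06%), 1261 of them also DE with all libraries. In the counts over genes the parts of the Th17 and the iTreg library M43 were not separated. What sets the Th17 library or the heading apart was not tested.

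**Figure D4:**
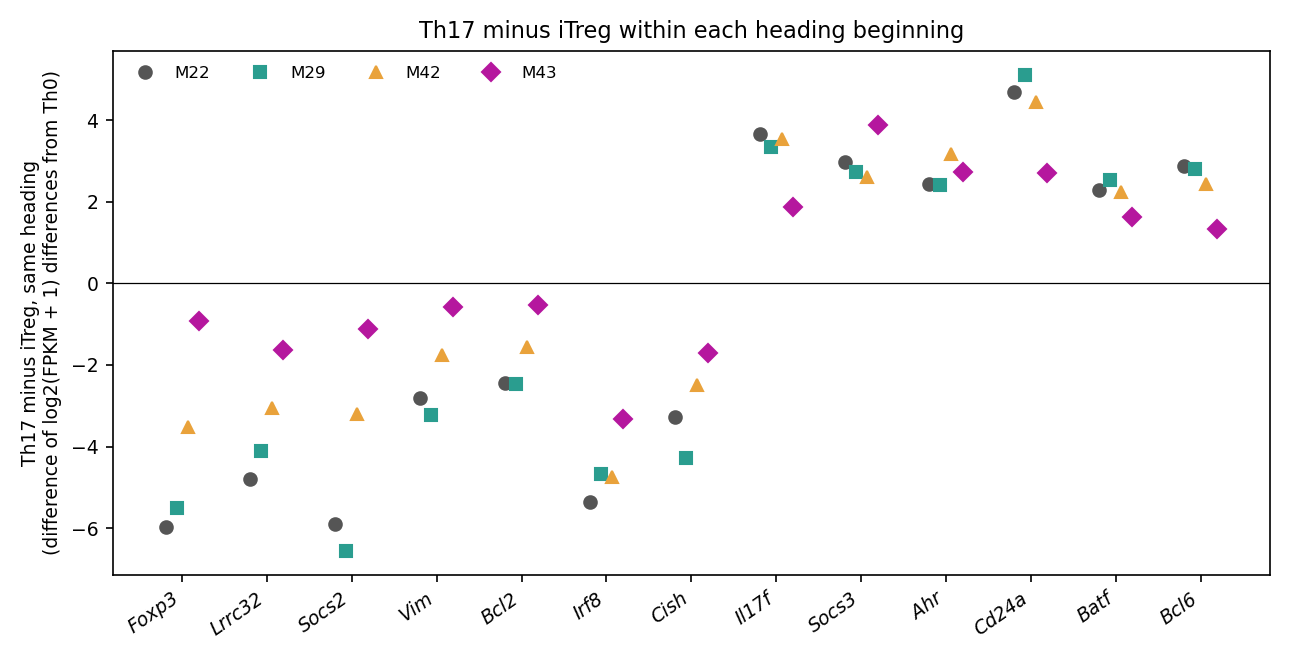
Th17 minus iTreg within each heading beginning (difference of the log2(FPKM + 1) differences from Th0) is plotted for 13 genes. The M43 values (diamonds) lie nearest to 0 for Foxp3 (-0.92), Socs2 (-1.12), Vim (-0.57), and Bcl2 (-0.53) and lowest for Il17f (1.87) and Cd24a (2.70), but highest for Socs3 (3.87).

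Checkpoint and costimulatory receptors had the largest share of DE genes of all 21 lists. Of 25 compared, 14 were higher in iTreg and 7 in Th17 cells (56.0% and 28.0%, where 8.63% and 8.49% of all genes were, median -1.07). Cd226, an activating receptor, was at 5.30, 4.80, 10.04, and 18.4 FPKM in iTreg and 0.641, 0.292, 0.138, and 0.581 FPKM in Th17 cells, with Th0 at 14.4 ± 5.65 FPKM (-2.77, standard error 0.26, adjusted p = 0.00028). Tnfsf11, which encodes RANKL, was at 8.82 and 0.445 FPKM on average (-2.68, adjusted p = 0.00092), and Cd274, which encodes PD-L1, at 32.7 and 5.17 FPKM (-2.48, adjusted p = 1.1e-05). All 3 were below Th0 in the mean of both cultures, and further below in Th17. On the Th17 side, Lag3, an inhibitory receptor for MHC class II, was at 297, 265, 59.7, and 109.6 FPKM in Th17 and 49.7, 61.5, 15.8, and 28.8 FPKM in iTreg cells (2.08, standard error 0.18, adjusted p = 0.00018). Cd28 was at 149.8 and 56.1 FPKM (1.39, adjusted p = 0.00084). Genes of inhibitory receptors and ligands thus stood on both sides, with Ctla4 and Lag3 higher in Th17 and Cd274 higher in iTreg cells.

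Genes of naive and memory T cells and of homing divided 12 to 3 in favour of Th17 among 27 compared (44.4% and 11.1%, median 0.52). Over all genes the shares were 8.49% and 8.63%. Without the Th17 library M43 the genes of this list divided 11 to 6 (6.82% and 7.06% of all genes). Cxcr5, the receptor that guides cells to B cell follicles, was at 41.5, 34.1, 23.2, and 36.9 FPKM in Th17 and 4.97, 3.64, 4.75, and 7.39 FPKM in iTreg cells (2.49, standard error 0.28, adjusted p = 0.00062). Satb1, a chromatin organizer that Treg cells repress, was at 90.4, 88.4, 95.7, and 78.3 FPKM and 23.9, 32.8, 14.4, and 16.9 FPKM (2.0037, standard error 0.19, adjusted p = 0.00023), above the Th0 mean (45.6 ± 8.33 FPKM) in every Th17 and below it in every iTreg library. Il7r (1.99, adjusted p = 0.0037), Tcf7 (1.28, adjusted p = 0.0037), Foxo1 (0.78, adjusted p = 0.0013), S1pr1 (1.27, adjusted p = 0.030, leave-one-out up to 0.11), and the gut homing receptor Gpr15 (1.99, adjusted p = 0.012, leave-one-out up to 0.091) were higher in Th17. Ccr4, a homing receptor of skin and of Treg cells, was at 53.2, 30.6, 21.97, and 69.6 FPKM in iTreg and 11.2, 8.34, 4.99, and 12.8 FPKM in Th17 cells (-2.07, standard error 0.30, adjusted p = 0.0022), and Cd44, the adhesion receptor of activated cells, at 50.9, 35.8, 30.04, and 79.4 FPKM and 11.2, 7.12, 9.46, and 28.6 FPKM (-1.83, standard error 0.20, adjusted p = 0.00058).

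TGFβ was present in both cultures. Of 23 compared genes of its pathway and targets, 5 were higher in Th17 and 4 in iTreg cells (21.7% and 17.4%, median 0.13). Over all genes the shares were 8.49% and 8.63%. Without the Th17 library M43 these counts were 3 and 4 (6.82% and 7.06% of all genes). With the block they were 5 and 4 (16% and 17.7% of all genes). The list was above Th0 in both, by a median of 0.82 in Th17 and 0.69 in iTreg cells. Runx3 (1.34, adjusted p = 0.00022), Smad3 (1.03, adjusted p = 0.00069), and Ldlrad4, an inhibitor of the pathway (1.04, adjusted p = 0.021, leave-one-out up to 0.089, 0.053 without Th17 M43, with 52.1% of exonic bases shared), were higher in Th17. Itgav (-0.89, adjusted p = 0.0013), an integrin chain that activates latent TGFβ, and Eng (-0.67, adjusted p = 0.026, leave-one-out up to 0.077), a coreceptor, were higher in iTreg cells, as was Tgfb1.

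Of 19 compared genes of the Th1 and Th2 programmes, 8 were higher in iTreg and 3 in Th17 cells (42.1% and 15.8%, where 8.63% and 8.49% of all genes were, median -0.45). IFNγ and IL4 had been neutralized in the Th17 cultures and not, per the labels, in the iTreg cultures. Besides Nkg7 and Ccl3, Gata3, the Th2 master factor, was at 10.4, 8.97, 7.35, and 8.27 FPKM in iTreg and 2.63, 2.49, 1.45, and 3.04 FPKM in Th17 cells (-1.55, standard error 0.24, adjusted p = 0.0032), with Th0 at 12.2 ± 2.91 FPKM. Il4ra (1.18, adjusted p = 0.00044) and Il12rb1 (0.68, adjusted p = 0.0496, leave-one-out up to 0.19), cytokine receptor chains, were higher in Th17. Of 30 compared interferon-stimulated genes, 5 were higher in iTreg and 1 in Th17 cells (16.7% and 3.33%, where 8.63% and 8.49% of all genes were, median -0.18). With the block the counts were 6 and 3 (17.7% and 16% of all genes). The median of these genes depended on the heading, from -0.99 within M29 to 0.47 within M43. Igtp (-1.4997, adjusted p = 0.037, leave-one-out up to 0.18) and Ifit1 (-1.13, adjusted p = 0.022, leave-one-out up to 0.14) were on the iTreg side and Stat2 (0.60, adjusted p = 0.024, leave-one-out up to 0.11, 0.05004 without Th17 M43) on the Th17 side.

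Activation and NF-κB feedback genes divided 8 to 6 toward iTreg among 31 (25.8% and 19.4%, where 8.63% and 8.49% of all genes were, median -0.17). With the block the counts were 13 and 10 (17.7% and 16% of all genes). Nr4a3, an orphan receptor induced by the T cell receptor, was at 82.3, 67.2, 103, and 88.5 FPKM in iTreg and 10.7, 10.8, 10.05, and 23.2 FPKM in Th17 cells (-2.64, standard error 0.34, adjusted p = 0.0013), and Dusp5, a phosphatase of ERK, at 61.5 and 15.97 FPKM (-1.93, adjusted p = 0.00036, 22.1% of exonic bases shared). Fos (1.38, adjusted p = 0.00021) and Fosl2 of the AP-1 factors and Malt1 (1.00, adjusted p = 0.00069) were higher in Th17.

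Genes of ribosome biogenesis lay mostly on the iTreg side. Of 46 compared, 21 were higher in iTreg and 1 in Th17 cells (45.7% and 2.17%, where 8.63% and 8.49% of all genes were). The counts were 37 and 1 with the block (17.7% and 16% of all genes), but 8 and 1 without the Th17 library M43 (7.06% and 6.82%). The median within M43 was -0.46, and within the other headings it was -0.28 to -0.54. List counts without other single libraries are not given. The differences were small (median -0.40), as iTreg cells were above Th0 by a median of 0.29 and Th17 cells below it by 0.11, on the log2 scale. Nhp2, a protein of small nucleolar ribonucleoproteins, was at 101, 113, 159, and 145 FPKM in iTreg and 55.05, 71.2, 105, and 77.4 FPKM in Th17 cells (-0.77, standard error 0.16, adjusted p = 0.012, leave-one-out up to 0.074). Nop16 (-0.77, adjusted p = 0.025, leave-one-out up to 0.12, 0.061 without Th17 M43) and Npm1, which encodes nucleophosmin (-0.53, adjusted p = 0.022, leave-one-out up to 0.11), were on the same side, and Rrp1b (0.93, adjusted p = 0.00048) was the gene higher in Th17. Within headings, Nhp2 differed by -0.88, -0.67, -0.61, and -0.91.

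Respiratory chain and ATP synthase subunits had a smaller median difference in the same direction. Of 76 compared, 10 were higher in iTreg and 0 in Th17 cells (13.2%, where 8.63% of all genes were higher in iTreg, median -0.23). The counts were 37 and 1 under the block (17.7% and 16% of all genes) and 31 and 1 at an unadjusted limma p under 0.05 (17.4% and 15.8%). Without the Th17 library M43 they were 3 and 0 (7.06% and 6.82%). The median within M43 was -0.34, and within the other headings it was -0.14 to -0.26. Cox5a, a subunit of cytochrome c oxidase, was at 235, 221, 291, and 236 FPKM in iTreg and 117, 146, 188, and 164 FPKM in Th17 cells (-0.70, standard error 0.12, adjusted p = 0.0043), and Uqcr10 of complex III at 203 and 132 FPKM (-0.64, adjusted p = 0.028, leave-one-out up to 0.14, 0.055 without Th17 M43). In total 66 subunits had a negative difference, most of them too small to be DE without the block.

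Glycolytic genes and HIF-1 targets were mostly not DE. Of 34 compared, 3 were higher in Th17 and 1 in iTreg cells (8.82% and 2.94%, where 8.49% and 8.63% of all genes were, median 0.19). The counts were 10 and 2 under the block (16% and 17.7% of all genes) and 5 and 1 without the Th17 library M43 (6.82% and 7.06%). The enolase genes parted. Eno3, the muscle form, was at 22.1, 20.6, 34.4, and 20.97 FPKM in iTreg and 6.42, 5.44, 5.12, and 5.19 FPKM in Th17 cells, where Th0 cells had 22.99 ± 2.86 FPKM (-1.95, standard error 0.17, adjusted p = 0.00020), and Eno2, the neuronal form, was at 13.5 and 27.5 FPKM (0.93, adjusted p = 0.028, leave-one-out up to 0.15). Pdk1, a kinase that keeps pyruvate from the mitochondria, was higher in Th17 (0.41, adjusted p = 0.032, leave-one-out up to 0.16).

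Fatty acid oxidation and elongation had 6 genes higher in iTreg and 3 higher in Th17 cells of 41 (14.6% and 7.32%, where 8.63% and 8.49% of all genes were, median -0.06). With the block the counts were 10 and 4 (17.7% and 16% of all genes). Eci1 (-0.96, adjusted p = 0.017, leave-one-out up to 0.074) and Eci2 (0.82, adjusted p = 0.0019), both enoyl-CoA isomerases, were on opposite sides, and so were Acsl4 (-0.80, adjusted p = 0.010, leave-one-out up to 0.059), an acyl-CoA synthetase, and Crat (0.50, adjusted p = 0.037, leave-one-out up to 0.13, 0.059 without Th17 M43), the carnitine acetyltransferase. Synthesis of fatty acids and cholesterol had 8 genes higher in iTreg and 1 in Th17 cells of 30 (26.7% and 3.33%, median -0.29), and 14 and 4 with the block, beside the same shares of all genes. Idi1, an isomerase of the cholesterol pathway, was at 68.5 FPKM in iTreg and 34.6 FPKM in Th17 cells (-0.99, adjusted p = 0.016, leave-one-out up to 0.097), and the desaturase gene Scd2 at 38.03, 15.1, 21.3, and 95.9 FPKM and 20.8, 11.7, 10.02, and 26.3 FPKM (-1.02, adjusted p = 0.019, leave-one-out up to 0.094). Acss2 was the gene on the Th17 side (0.62, adjusted p = 0.033, leave-one-out up to 0.14, 0.052 without Th17 M43).

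Of 29 genes of serine, one-carbon, and amino acid stress metabolism, 5 were higher in iTreg and 0 in Th17 cells (17.2%, where 8.63% of all genes were higher in iTreg, median -0.35). The counts were 14 and 0 with the block (17.7% and 16% of all genes) and 10 and 0 at an unadjusted limma p under 0.05 (17.4% and 15.8%). Phgdh, the first enzyme of serine synthesis, was at 174 and 94.8 FPKM (-0.88, adjusted p = 0.0047), Sesn2 at 47.3 and 25.3 FPKM (-0.90, adjusted p = 0.0023), and the stress factor Atf3 at 8.16, 10.2, 14.6, and 10.6 FPKM and 0.620, 1.58, 2.48, and 3.15 FPKM (-2.08, standard error 0.21, adjusted p = 0.00043). Cell cycle and replication genes were below Th0 in both cultures (median -0.81 in Th17 and -0.66 in iTreg cells). Of 48, 1 was higher in Th17 and 2 in iTreg cells (2.08% and 4.17%, where 8.49% and 8.63% of all genes were, median -0.29). With the block the counts were 1 and 6 (16% and 17.7% of all genes). The 3 DE genes were inhibitors and a cyclin: Cdkn1b (0.86, adjusted p = 0.0045) was higher in Th17, and Cdkn1a (-1.74, adjusted p = 0.0069) and Ccnd2 in iTreg cells.

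Vim (chromosome 2, 13573927 to 13582826, plus strand), which encodes the intermediate filament vimentin, was at 917, 579.9, 1119, and 1053 FPKM in iTreg and 131, 61.9, 333, and 718 FPKM in Th17 cells, with Th0 at 209 ± 97.4 FPKM. The iTreg libraries were all above the Th0 mean, and the Th17 libraries spread from 61.9 to 718 FPKM, with M43 above the lowest iTreg library. The anchored difference was -2.09 (standard error 0.39, adjusted p = 0.0069), and -2.45 (adjusted p = 0.0016) without the Th17 library M43. Of 31 genes of the cytoskeleton and adhesion, 4 were higher in iTreg and 2 in Th17 cells (12.9% and 6.45%, where 8.63% and 8.49% of all genes were, median -0.21). With the block the counts were 11 and 5 (17.7% and 16% of all genes). Lmna, which encodes lamin A, was at 9.71 FPKM in iTreg and 1.9998 FPKM in Th17 cells (-1.84, adjusted p = 0.0013), and Cnn2 (0.72, adjusted p = 0.0096, leave-one-out up to 0.080) and Flna (0.48, adjusted p = 0.022, leave-one-out up to 0.14), both actin-binding, were higher in Th17.

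The study names a number of proteins in its comparison of these cells. Of their genes, 35 were compared here and 11 were higher in Th17 and 6 in iTreg cells (31.4% and 17.1%, where 8.49% and 8.63% of all genes were, median 0.08). They were chosen by the study for these cell types, so this is not independent evidence of their direction. Etv6, a repressor of the ETS family, was among them (1.08, adjusted p = 0.0014). Of 14 pan-T cell genes, 5 were higher in iTreg and 2 in Th17 cells (35.7% and 14.3%, where 8.63% and 8.49% of all genes were, median -0.03). Cd4 was at 87.4, 67.1, 33.8, and 84.1 FPKM in Th17 and 206, 152, 78.2, and 196 FPKM in iTreg cells (-1.21, standard error 0.20, adjusted p = 0.0040), and its within-heading differences were even (-1.24, -1.18, -1.20, and -1.23). Thy1 (-1.43, adjusted p = 0.022, leave-one-out up to 0.12) and Trat1 (-1.47, adjusted p = 0.0042) were on the same side, and Cd247 (0.36, adjusted p = 0.043, leave-one-out up to 0.21, 0.059 without Th17 M43, 60.3% of exonic bases shared) was higher in Th17.

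Outside the comparison were 191 genes listed only in the Th17 table, 170 listed only in the iTreg table, and 807 in both but under the filter, and for these no difference was tested. The 6 with the highest mean FPKM included cytokine genes of each culture. Il21, a Th17 and follicular helper cytokine, was listed in the Th17 table only, at 65.9, 66.01, 94.1, and 70.4 FPKM in Th17 cells and 0.109 FPKM on average in Th0 cells. Il9 was listed in the iTreg table only, at 45.97, 13.97, 66.6, and 74.6 FPKM in iTreg cells and 0.197 FPKM on average in Th0 cells. Nupr1, a stress-response cofactor and the highest of them, was in the iTreg table at 163, 73.1, 141, and 139.9 FPKM. Tox2, a factor of follicular helper cells, stood in both tables under the filter, at 52.9, 75.4, 55.8, and 24.005 FPKM in Th17 and 0.820, 1.21, 0.795, and 0.534 FPKM in iTreg cells. Pltp, a lipid transfer protein (36.7 FPKM), and the small nucleolar RNA gene Snord89 (41.6 FPKM) were listed in the Th17 table only. Il17a, chosen after its values were seen, was in the Th17 table only as well, at 22.9, 7.27, 65.2, and 21.2 FPKM in Th17 cells. No value is used here for a gene in a table that does not list it.

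**Figure D5:**
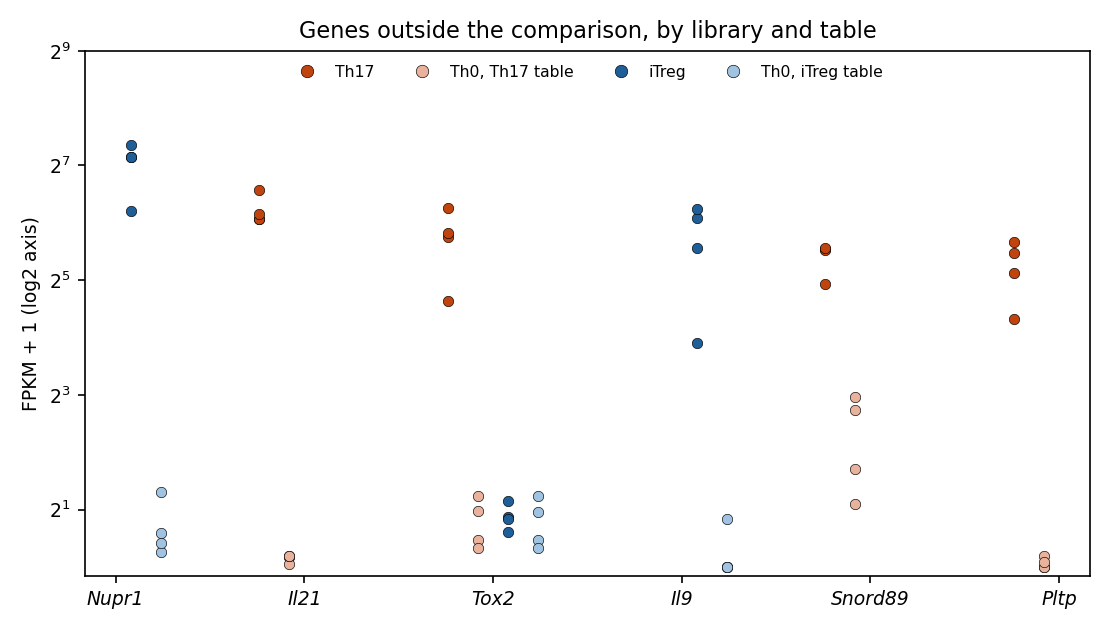
FPKM + 1 on a log2 axis is shown by library for the 6 genes with the highest mean outside the comparison, in Th17 and iTreg cells and in the Th0 libraries of each table. Nupr1 and Il9 have values in the iTreg table only, Il21, Snord89, and Pltp in the Th17 table only, and Tox2 in both.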

How the data were processed

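RNA had been extracted with RNeasy, made into TruSeq libraries, and sequenced in paired ends on an Illumina HiSeq. The authors aligned reads with TopHat 2.0.14 to mm10, counted them over exons without strand with HTSeq, kept genes above 1 cpm in at least 4 samples, and tested them with edgeR. The deposited values are FPKM, in 1 table of 8 libraries for Th17 and 1 for iTreg, and neither the labels nor the methods say how FPKM was computed. The same Th0 libraries differ between the tables by a constant factor, so each table was used only against its own Th0 columns. Another 10 columns hold the authors' own fold changes and tests and were not used.

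Depth was estimated from the steps between low FPKM values, since the files give no read totals. A gene was kept where at least 4 of the 8 libraries exceeded 1 FPKM in each table. The differences of log2(FPKM + 1) from Th0 were compared between groups (4 against 4) with limma 3.58.1 in R 4.3.3, with Benjamini-Hochberg adjustment over 10079 genes, and the code was tested on simulated data. A fold on this scale understates the change of low genes. An exact permutation of 4 against 4 cannot go below p = 0.0286. Cultures are described as independent, and p-values measure only the spread between these libraries.

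Deviations of library levels from their group means correlated over genes by 0.502 to 0.794 between Th17 and iTreg libraries whose headings begin alike and by -0.591 to 0.343 between others. Every same-headed pair was thus over 0.1, so the heading was also fitted as a block. The labels number the cultures of each group by experiment and the authors name a pair-wise design, but no source links the column headings to those numbers. The unpaired fit was kept as the main one, with the block beside it where calls change. Since same-headed differences share a Th0 library, they are paired whatever the numbers are, and the unpaired fit ignores this. Its median standard error was 0.129, against 0.0865 with the block. Other alternatives were pseudocounts, filters, another Th0 subtraction, centring, options of limma, a stricter FDR, and leaving out each library.

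Named genes are the 12 largest differences in each direction (no overlap, mean above 10 FPKM), all compared genes of the Th17, Treg, and IL2 lists, up to 4 of the largest DE genes of every other list, and the 6 highest genes outside the comparison. A further 13 were chosen after their values were seen (Satb1, Il7r, Tcf7, S1pr1, Foxo1, Gata3, Cd274, Gpr15, Phgdh, Npm1, Smad3, Malt1, and Etv6). Values of some genes are not reported here, although the list counts include them. The genes compared, the lists, and the tests were chosen with earlier results of these data known. Gene positions are from an annotation of GRCm38 and promoter sequences from RefSeq (GRCm38.p6), matched by symbol.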

Additional observations from a re-analysis of the deposited data

Results flagged for a closer look

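In 12 of 286 groups of 4 differences among the named genes, 1 library stood far from the other 3 by Dixon's criterion, which chance alone meets in about 1 of 20 groups. Values are differences from Th0 of log2(FPKM + 1). The Th17 library M43 was high for Cyp1b1 (4.529, others 3.918 to 3.98), Socs3 (4.979, others 3.716 to 3.92), Fos (0.08552, others -0.3788 to -0.3505), and Ccnd2 (-1.016, others -1.424 to -1.385). The Th17 library M22 was high for Cd68 (1.76, others 0.4986 to 0.6395) and low for Il2ra (0.4195, others 1.27 to 1.423). The Th17 library M29 was low for Gpr15 (2.159, others 3.974 to 4.057), and M42 was low for Icos (-0.08713, others 0.4878 to 0.5319). Among iTreg libraries, M29 was high for Nop16 (1.124, others 0.4465 to 0.5614) and low for Cd79a (-0.928, others -0.1219 to 0.0232), and M42 was low for Olfm2 (1.695, others 2.099 to 2.143) and Runx1 (0.7835, others 1.104 to 1.151).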

How the results depend on the processing

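The number of DE genes by limma was 1726 (856 higher in Th17 and 870 higher in iTreg cells). It was 1634 to 1845 with pseudocounts of 0.1 or 5, without a filter or with another one, after centring, and with the trend or robust option. The block on the heading beginning gave 3396 (1615 and 1781), subtracting the mean of the 4 Th0 libraries 1083 (576 and 507), and an FDR of 0.01 668 (342 and 326). Without single libraries the count was 649 to 2024 (333 to 992 higher in Th17 and 316 to 1032 higher in iTreg cells), lowest without the Th0 library M22 and highest without the Th17 library M29. It was 784 without the Th0 library M42, 990 without M43, 1074 without the Th17 and 1127 without the iTreg library M22. A left-out Th0 library takes the paired Th17 and iTreg libraries with it. Of the 112 named DE genes, 47 lost the call under at least 1 alternative (28 with the mean Th0, 35 at an FDR of 0.01, 0 with the block) and 0 changed direction. Among the 31 named genes that were not DE, the block called 14 and changed no other call. The direction changed in 12 instances, all of genes near 0. Without 1 library, Cd101 ranged from -0.12 to 0.45, Irf4 from -0.091 to 0.13, and Cd79a from -0.24 to 0.27. The changed values were -0.0095, -0.12, -0.02, and -0.05 for Cd101, -0.091 and -0.063 for Irf4, and for Cd79a 0.27, 0.05, 0.07, 0.03, 0.05, and 0.02. The cause of these changes was not tested. Genes of low FPKM rest on few reads, which limits their precision.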
